A study of Mus musculus with 21 samples.

Results

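The translation initiation and elongation factor genes of E14 mouse embryonic stem cells, a line of the 129 strain grown in serum with LIF, were followed over 8 h of RNA polymerase I inhibition. Members were all rows of the expression table whose symbol starts with Eif1 to Eif6, or with Eef1 or Eef2, leaving out pseudogene symbols that contain the letters ps. This rule used names and no measured value, and it found 62 genes among 20900, all 62 of which were also among the 14666 genes with enough reads to be tested. Either BMH-21 or CX-5461 was added at 1 µM. Both are small molecules used to stop RNA polymerase I, which makes the precursor of the large ribosomal RNAs, and poly(A) RNA was sequenced 2, 4 and 8 h later. Untreated cells at 0 h were the control for both inhibitors and for every time. Each of the 7 groups held 3 replicates, which makes 21 libraries. The labels do not say whether replicates were separate cultures, so p-values measure the spread between these libraries, which may be technical. The inhibitors were given in a change of medium and untreated cells were taken at 0 h only, so the inhibitor and the time since that change cannot be told apart.

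Translation of most mRNAs begins when eIF4E, eIF4G and the helicase eIF4A gather on the mRNA cap and bring in the small ribosomal subunit, which carries eIF3, eIF1, eIF1A, eIF5 and eIF2 bound to GTP and the initiator tRNA. After the start codon is found, eIF2 leaves with GDP and is recharged by the exchange factor eIF2B, and kinases that phosphorylate eIF2 on its alpha subunit block that step. In elongation eEF1A delivers aminoacyl tRNAs, the eEF1B subunits recharge it, and eEF2 moves the ribosome along the mRNA. Embryonic stem cells are known for low overall translation relative to the differentiated cells they give rise to.

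Libraries held 46604397 to 62812641 reads over the genes of the table, and replicates of a group differed beyond counting error in each pair (chi-square per degree of freedom 2.58 to 26.0), so all 21 were counted. The deposited log2 values carried a different scaling in each library. For the values below each library was shifted by 1 constant, between -0.37 and 0.31, so that the median gene sat at the same level in all libraries. A change is thus relative to the median of the 14666 genes and says nothing of the amount of mRNA per cell. In bulk RNA, fewer cells of a type and less RNA per cell cannot be told apart. The 6 embryonic stem cell markers Pou5f1, Sox2, Nanog, Zfp42, Esrrb and Dppa5a were all present, and their summed level ran from 4450 to 4520 CPM (reads scaled to the library total) in untreated cells, 2600 to 3000 after 8 h in BMH-21 and 3770 to 3810 after 8 h in CX-5461. All 4 trophoblast markers (Cdx2, Elf5, Tfap2c and Hand1) also had reads in every group, with sums of 65.8 to 69.3, 153 to 164 and 104 to 121 CPM in those 3 groups, mostly from Tfap2c. The sum of 5 fibroblast markers was 27.7 to 29, 49.8 to 56 and 39.1 to 40.8 CPM in the same order, with Lum at 0 to 2 reads per library in these groups. Its increase lay in Col1a1, with 370 to 436 reads per untreated library and 1853 to 2551 after 8 h in BMH-21, while Thy1 had 1011 to 1093 and 534 to 659 and Col3a1 had 4 to 18 and 3 to 10. For 4 primitive endoderm markers the sums were 5.72 to 6.88, 8.83 to 9.02 and 7.55 to 7.99. The part of these marker changes in the results on translation factors was not tested.

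In the shifted values most of the 62 genes changed little at 2 h and were lower than in untreated cells at 8 h of either inhibitor. For CX-5461 at 8 h this depends on the scaling, as given below. The 62 genes took 3.88% ± 0.04 (SD, n = 3) of all reads in untreated cells. Their share was 3.87% ± 0.04, 3.81% ± 0.03 and 3.39% ± 0.11 after 2, 4 and 8 h in BMH-21, and 3.90% ± 0.03, 3.82% ± 0.02 and 3.50% ± 0.03 with CX-5461. The share of reads needs no scaling between libraries, and at 8 h it lay below every untreated library in all 6 treated ones. A small set went against the rest, led by Eef1a2, Eif4e3 and the eIF2 alpha kinases Eif2ak1 and Eif2ak3.

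**Figure D1:**
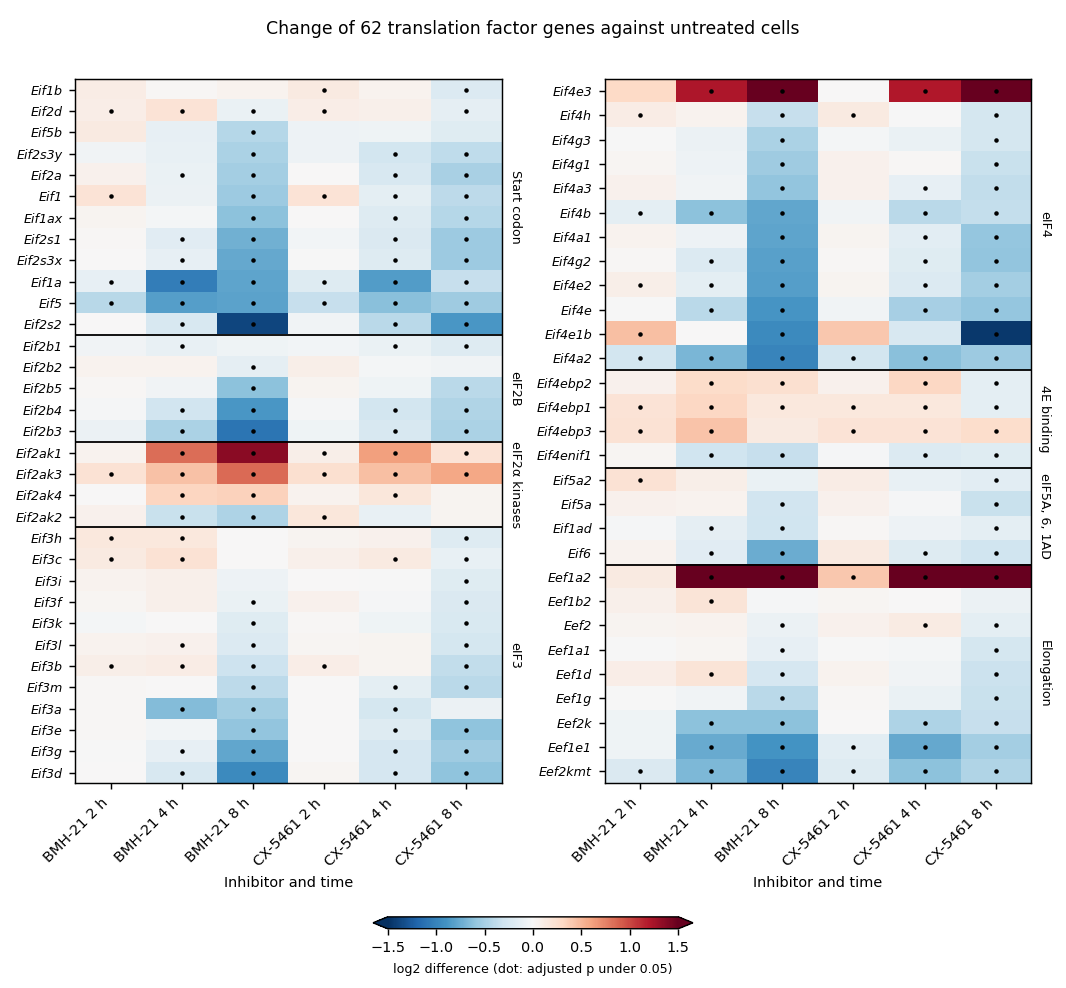
Log2 difference of each of the 62 genes (rows, grouped by role) against untreated cells after 2, 4 and 8 h in BMH-21 or CX-5461 (columns), with a dot where the limma adjusted p was under 0.05 and colours saturated at 1.5 on either side. In the shifted values shown, 47 genes were lower with BMH-21 and 51 with CX-5461 at 8 h, while Eef1a2, Eif4e3, Eif2ak1 and Eif2ak3 were higher with both.

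Each gene was tested with limma over all 14666 genes, at a Benjamini-Hochberg adjusted p under 0.05. After 2 h in BMH-21, 12 members were higher and 5 lower than untreated, against 20.1% and 15.8% of all genes tested (35.8% in either direction), and CX-5461 gave 11 higher and 5 lower against 19.1% and 12.6% (31.7%). At 4 h the counts were 15 higher and 24 lower with BMH-21 (35.4% and 37.4% of all genes, 72.7% in all) and 10 higher and 29 lower with CX-5461 (34.1% and 35.3%, 69.4% in all). At 8 h 7 members were higher and 47 lower with BMH-21 (40.7% and 41.8%, 82.5% in all), and 5 were higher and 51 lower with CX-5461 (36.3% and 33.9%, 70.2% in all). As shares of the 62 members, 75.8% and 82.3% were lower at 8 h. The median log2 difference of the members was -0.45 with BMH-21 and -0.32 with CX-5461 at 8 h, where the median of all genes was -0.01 and 0.01. The comparisons with untreated cells share the same 3 controls, so they are not independent of each other.

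Translation factor genes are strongly expressed, and strongly expressed genes as a whole were also mostly lower at 8 h. Among the 2876 genes whose mean log2 level was at least 6.29, the lower quartile of the members, 64.0% were lower after 8 h in BMH-21 and 66.9% after 8 h in CX-5461. Of the 46 members in this range 82.6% and 91.3% were lower. The medians were -0.27 for those genes and -0.47 for those members under BMH-21, and -0.22 and -0.33 under CX-5461. At 4 h the shares lower were close to each other in this range, at 42.7% of genes and 41.3% of members under BMH-21 and at 49.9% and 52.2% under CX-5461.

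How far the family fell depended on the scaling. Taken as deposited, the member median at 8 h was -0.83 with BMH-21 and -0.22 with CX-5461, but the median of all genes was then -0.40 and 0.11. Centring each library on its own median gave -0.62 and -0.44 for the members, with -0.19 and -0.11 for all genes. Quantile normalization, which forces every library to the same distribution of levels, gave -0.26 and -0.05 for the members against -0.17 and -0.08 for all genes, so under it the members did not stand below all genes after CX-5461. Under those settings in turn 55, 54 and 39 members were lower after 8 h in BMH-21, and 30, 55 and 27 after 8 h in CX-5461. The count higher at 2 h was 0 for both inhibitors in the deposited values. Genes are therefore named below, for a change against untreated cells or between inhibitors, only where they were called in the same direction in the shifted, the deposited and the centred values and the 3 and 3 libraries did not overlap. By that rule 0 members were higher and 3 lower after 2 h in BMH-21, 4 and 22 after 4 h, and 4 and 42 after 8 h. CX-5461 gave 0 and 5, 3 and 29, and 4 and 30. How many of all genes pass this rule was not counted. It needs a call in the deposited values, where 8349 of all genes were lower and 3599 higher after 8 h in BMH-21. After 8 h in CX-5461 2091 were lower and 5154 higher. The rule thus passes falls more easily with BMH-21 and rises more easily with CX-5461 at 8 h. Other members are given by their values.

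**Figure D2:**
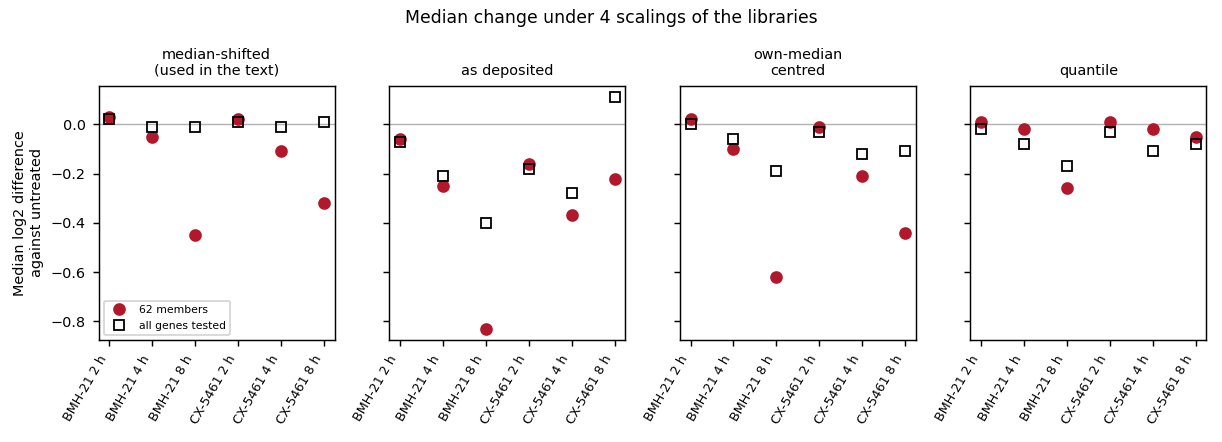
Median log2 difference against untreated cells (vertical axis) of the 62 translation factor genes (filled points) and of all 14666 genes tested (open squares) in the 6 comparisons (horizontal axis), under 4 scalings of the libraries (panels). At 8 h the members lie below all genes in the first 3 panels with both inhibitors, while under quantile normalization they lie at -0.26 against -0.17 with BMH-21 and at -0.05 against -0.08 with CX-5461.

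On GRCm38, in the GENCODE annotation, the protein-coding genes described at most length are Eef1a2 (chr2:181147653-181157014, minus strand), Eif4e3 (chr6:99625135-99666771, minus strand), Eif2ak1 (chr5:143817788-143904251, plus strand), Eif2ak3 (chr6:70844515-70905245, plus strand), Eif2s2 (chr2:154871410-154892935, minus strand), Eif2b3 (chr4:117019402-117087306, plus strand), Eif5 (chr12:111538016-111546752, plus strand) and Eif4a2 (chr16:23107444-23114136, plus strand). Values are per gene, so parts of a gene were not compared.

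In untreated cells the levels of the 62 genes covered a wide range. Per kilobase of exon, Eef1a1 stood highest at a log2 level of 12.02 ± 0.04 (SD, n = 3), followed by Eif5a at 10.01 ± 0.04 and Eef2 at 9.99 ± 0.03, which did not differ beyond their spread. Eif4a1, the main cap helicase, came next at 9.68 ± 0.04, and Eef1g at 9.49 ± 0.05. The lowest members were Eef1a2 at 1.00 ± 0.07, Eif4e1b at -0.25 ± 0.08 and Eif4e3 at -0.89 ± 0.13, which are relatives of abundant factors. Reads could be split between close copies, among them Eif1a and Eif1ax, Eif2s3x and Eif2s3y, and Eef1a1 and Eef1a2, so levels of these genes are uncertain.

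Among factors of the initiator tRNA and start codon, 11 of 12 genes were lower after 8 h of each inhibitor and 0 were higher, with medians of -0.59 (BMH-21) and -0.41 (CX-5461). The median stayed below 0 under all 4 scalings. Beside this role and each role below, 41.8% of all genes tested were lower and 40.7% higher after 8 h in BMH-21. After 8 h in CX-5461 33.9% were lower and 36.3% higher. Among strongly expressed genes 64.0% and 66.9% were lower. Eif2s2, which encodes the beta subunit of eIF2, had shifted log2 values of 9.92, 9.92 and 9.85 in untreated cells, 8.51, 8.60 and 8.44 after 8 h in BMH-21 and 9.07, 9.05 and 8.98 after 8 h in CX-5461. All treated values at 8 h lay below all untreated ones. BMH-21 left it at 38.4% of its untreated level (log2 difference -1.38, SE 0.04, limma adjusted p 3.1e-19) and CX-5461 at 54.7% (-0.87, SE 0.04, limma adjusted p 1.1e-14). Of the other eIF2 subunits, Eif2s1 (alpha) changed by -0.72 and -0.54 and Eif2s3x (gamma) by -0.77 and -0.55. Eif2s2 thus fell further than its partners, as a ratio within each library shows without any scaling. Ratios are given as a description, with no test. Per kilobase it stood at 190% ± 5.4 (SD, n = 3) of Eif2s1 in untreated cells, 120% ± 5.9 after 8 h in BMH-21 and 150% ± 2.4 after 8 h in CX-5461, with no overlap between these 3 groups. The ratio of Eif2s3x to Eif2s1 was 163% ± 4.6, 158% ± 3.8 and 162% ± 5.7 in the same groups, which overlap.

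Eif5 and Eif1a fell earlier than the eIF2 subunits. Eif5, the factor that makes eIF2 hydrolyse its GTP, had values of 9.12, 9.16 and 9.05 untreated, 8.68, 8.69 and 8.71 after 2 h in BMH-21 and 8.76, 8.72 and 8.80 after 2 h in CX-5461. It was the largest fall of any member at 2 h, to 74.9% under BMH-21 (limma adjusted p 8.5e-10) and 78.6% under CX-5461 (limma adjusted p 1.9e-08). At 4 h it stood at 56.1% and 64.7%, and at 8 h at 57.3% and 69.2%. Most of this fall was thus present by 4 h, whereas Eif2s2 stood at 84.7% and 75.6% at 4 h and was at 101% and 96.9% at 2 h.

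Eif1a, one of a pair of genes for the scanning factor eIF1A, reached its lowest level at 4 h. It had values of 8.05, 8.07 and 8.02 untreated, between 6.99 and 7.04 after 4 h in BMH-21 and 7.27, 7.29 and 7.21 after 8 h. With CX-5461 the values were 7.16, 7.24 and 7.23 at 4 h and 7.72, 7.68 and 7.70 at 8 h. At 4 h this was 48.8% of untreated with BMH-21 (limma adjusted p 8.7e-19), the largest fall of any member at that time, and 55.9% with CX-5461 (limma adjusted p 6.7e-17). Between 4 and 8 h in CX-5461 it rose by 0.49 (limma adjusted p 1.2e-11), called in the deposited and centred values too. The 0.25 rise between 4 and 8 h in BMH-21 was 0.06 as deposited. Already at 2 h Eif1a lay below every untreated library in the shifted values. It had 7.92, 7.94 and 7.91 with BMH-21, a fall not called as deposited, and 7.83, 7.85 and 7.87 with CX-5461. Relative to its paralog Eif1ax it stood at 181% ± 9.9 (SD, n = 3) untreated, 90.1% ± 2.7 and 162% ± 7 after 4 and 8 h in BMH-21, and 116% ± 4 and 192% ± 7.7 after 4 and 8 h in CX-5461. The ratio was lowest at 4 h with each inhibitor.

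The exchange factor eIF2B has 5 subunits, and 4 of the 5 genes were lower at 8 h of each inhibitor, with medians of -0.62 and -0.41. Eif2b3, for the gamma subunit, had values of 6.18, 6.21 and 6.10 untreated, 5.12, 5.17 and 4.94 after 8 h in BMH-21 and 5.69, 5.70 and 5.67 after 8 h in CX-5461, each treated group below every untreated library. This left 47.1% of untreated under BMH-21 (-1.09, SE 0.05, limma adjusted p 2.1e-16) and 71.7% with CX-5461 (-0.48, SE 0.05, limma adjusted p 2.7e-09). Eif2b4 changed by -0.87 and -0.45 and Eif2b5 by -0.62 and -0.41. Eif2b1, the alpha subunit, was at 96% of untreated after BMH-21 (limma adjusted p 0.18). As deposited and after centring Eif2b1 was called lower too, as were all 5 genes. The fall was therefore unequal within the complex: Eif2b3 stood at 26.2% ± 0.36 (SD, n = 3) of Eif2b1 per kilobase in untreated libraries, 12.9% ± 1 after 8 h in BMH-21 and 21.5% ± 0.94 after 8 h in CX-5461.

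Of the 4 eIF2 alpha kinases, 3 were higher and 1 lower after 8 h in BMH-21, and 2 were higher and 2 not called after 8 h in CX-5461. As deposited, BMH-21 gave 2 higher and 1 lower. Eif2ak1, which encodes the kinase HRI that senses haem shortage and mitochondrial stress, had values of 6.25, 6.26 and 6.20 untreated, 7.08, 7.07 and 7.07 after 4 h in BMH-21 and 7.55, 7.58 and 7.64 after 8 h. With CX-5461 they were 6.83, 6.85 and 6.86 at 4 h and 6.45, 6.50 and 6.40 at 8 h. The level thus climbed through 8 h in BMH-21, to 2.55-fold (1.35, SE 0.03, limma adjusted p 7.6e-21), while with CX-5461 it was 1.53-fold at 4 h (limma adjusted p 9.3e-14) and 1.16-fold at 8 h (0.21, limma adjusted p 7.0e-06). Eif2ak3, for the endoplasmic reticulum kinase PERK, had values of 4.89, 4.90 and 4.87 untreated, 5.73, 5.64 and 5.85 after 8 h in BMH-21 and 5.47, 5.49 and 5.47 after 8 h in CX-5461. It rose 1.8-fold (limma adjusted p 8.1e-15) and 1.5-fold (limma adjusted p 3.1e-11), with no overlap. Eif2ak4, for the amino acid sensor GCN2, was at 1.27-fold after 8 h in BMH-21, a difference that was -0.04 as deposited, and differed by 0.04 after 8 h in CX-5461 (limma adjusted p 0.55). Eif2ak2, for the double-stranded RNA sensor PKR, was at 72.7% after 8 h in BMH-21 and 103% after CX-5461.

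**Figure D3:**
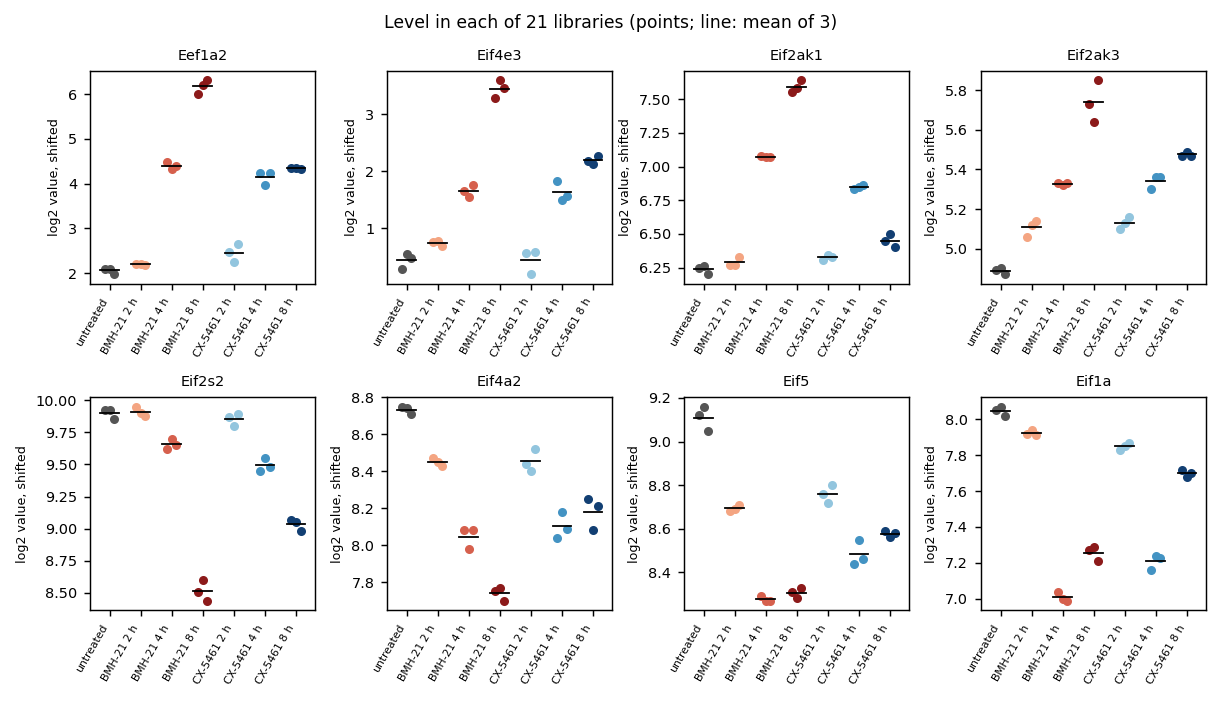
Shifted log2 level of 8 genes (panels; vertical axes do not start at 0) in each of the 21 libraries (points, with a line at the mean of 3) by group (horizontal axis). Eef1a2 runs from 1.97 to 2.10 in untreated libraries and from 6.01 to 6.31 after 8 h in BMH-21, Eif2s2 from 9.85 to 9.92 and from 8.44 to 8.60, and Eif1a lies lowest at 4 h with each inhibitor.

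The eIF3 complex, the scaffold that joins mRNA to the small subunit, changed less and unevenly. Of 12 genes, 9 were lower after 8 h in BMH-21 and 11 after CX-5461, with medians of -0.26 and -0.24. As deposited the counts lower were 12 and 5, with medians of -0.65 and -0.14. Under quantile normalization the medians were 0.00 and 0.02 and the direction of the complex was lost. Eif3d, whose product can bind the cap, had values of 8.81, 8.83 and 8.80 untreated, 7.84, 7.92 and 7.83 after 8 h in BMH-21 and 8.19, 8.26 and 8.19 after 8 h in CX-5461. It stood at 51.8% (limma adjusted p 5.7e-18) and 65.9% (limma adjusted p 1.5e-13), below every untreated library. Eif3e had values of 8.51, 8.51 and 8.39 untreated and 7.90, 7.89 and 7.83 after 8 h in CX-5461, a fall to 66% (limma adjusted p 1.3e-10), and stood at 66.3% with BMH-21. Both of these falls held under quantile normalization, at -0.70 and -0.27 for Eif3d and -0.36 and -0.34 for Eif3e. At the other end Eif3c and Eif3h differed by 0.00 and 0.01 after 8 h in BMH-21 in the shifted values, with overlapping libraries. As deposited and after centring both were called lower, as were all 12 eIF3 genes. Eif3a, the largest subunit, varied between untreated libraries, at 9.60, 9.69 and 9.98, against 8.89, 9.34 and 9.10 after 4 h in BMH-21 and 9.43, 9.53 and 9.54 after 4 h in CX-5461. It was lower with BMH-21 than with CX-5461 at 4 h by 0.39 (limma adjusted p 9.1e-04), with no overlap between those groups.

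Of the 12 genes grouped as eIF4 factors, 11 were lower and 1 higher after 8 h of each inhibitor. Their medians were -0.78 (BMH-21) and -0.44 (CX-5461), below 0 under all 4 scalings. The group follows factor names, so not every gene in it need act in cap binding and unwinding. Eif4a2, a second gene for the eIF4A helicase, fell already at 2 h. Its values were 8.75, 8.74 and 8.71 untreated, 8.47, 8.45 and 8.43 after 2 h in BMH-21, and 7.75, 7.77 and 7.70 after 8 h. With CX-5461 they were 8.44, 8.40 and 8.52 at 2 h and 8.25, 8.08 and 8.21 at 8 h. It stood at 82.3% after 2 h of either inhibitor (limma adjusted p 2.2e-05 and 2.4e-05), at 62.3% and 64.8% at 4 h, and at 50.4% and 68.2% at 8 h. As a share of Eif4a1 per kilobase it went from 9.73% ± 0.14 (SD, n = 3) untreated to 7.74% ± 0.14 and 7.79% ± 0.23 at 2 h, and to 6.41% ± 0.25 and 7.03% ± 0.38 at 4 h. At 8 h it was 8.46% ± 0.45 and 9.97% ± 0.73, still below every untreated library with BMH-21 and overlapping with them with CX-5461. Eif4a1 itself changed little until 4 h (-0.08 and -0.16) and by -0.79 and -0.58 at 8 h, so the 2 helicase genes fell at different times.

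The cap-binding proteins split by gene. Eif4e stood at 54.5% (BMH-21) and 66.8% (CX-5461) of untreated at 8 h, and Eif4e2, for a cap-binding relative linked to repression of translation, changed by -0.83 and -0.51. Eif4e3, a weakly expressed relative, had values of 0.29, 0.55 and 0.47 untreated, 1.65, 1.54 and 1.75 after 4 h in BMH-21 and 3.28, 3.59 and 3.45 after 8 h. With CX-5461 they were 1.83, 1.50 and 1.56 at 4 h and 2.17, 2.13 and 2.27 at 8 h. No treated library at 4 or 8 h overlapped with the untreated ones. These values rest on 66 to 77 reads per untreated library, 525 to 800 after 8 h in BMH-21 and 249 to 275 after 8 h in CX-5461. The rise at 8 h was 8.02-fold under BMH-21 (3.00, SE 0.12, limma adjusted p 6.7e-17) and 3.37-fold with CX-5461 (1.75, SE 0.12, limma adjusted p 7.0e-12). Within a library Eif4e3 went from 1.38% ± 0.13 (SD, n = 3) of Eif4e per kilobase to 20.5% ± 2.2 at 8 h under BMH-21, or 7.02% ± 0.55 under CX-5461, so Eif4e stayed the more abundant of the pair. Eif4e1b, known for its expression in oocytes, had values of 0.84, 0.99 and 0.94 untreated, -0.09, -0.05 and 0.06 after 8 h in BMH-21 and -0.46, -0.68 and -0.43 after 8 h in CX-5461. It fell to 51.7% (limma adjusted p 9.2e-06) and 36.6% (limma adjusted p 3.1e-08) on 93 to 105 untreated reads and 37 to 64 reads at 8 h.

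Genes for the eIF4E binding proteins, which hold eIF4E away from eIF4G, fell less than their target or not at all. Of 4 genes, 2 were higher and 1 lower after 8 h in BMH-21, and 1 was higher and 3 lower after 8 h in CX-5461. Eif4ebp1 and Eif4ebp2 differed from untreated by 0.16 and 0.24 in BMH-21 and by -0.15 and -0.15 in CX-5461 at 8 h. The BMH-21 values were -0.23 and -0.15 as deposited. With CX-5461 neither was called lower as deposited or under quantile normalization. The ratio to Eif4e within a library is free of the scaling. Eif4ebp1 stood at 303% ± 11 (SD, n = 3) of Eif4e per kilobase untreated, 502% ± 50 and 622% ± 32 after 4 and 8 h in BMH-21, and 480% ± 19 and 410% ± 3.1 after 4 and 8 h in CX-5461. For Eif4ebp2 the ratios were 54.8% ± 2.5, 88.1% ± 4.4, 119% ± 12, 96.2% ± 4 and 73.7% ± 3.4. In both cases all treated libraries at 4 and 8 h lay above all untreated ones, and the ratio at 8 h was higher with BMH-21 than with CX-5461 without overlap. With BMH-21 the mean was higher at 8 h than at 4 h, and with CX-5461 it was lower at 8 h than at 4 h. Protein levels and phosphorylation, which control the binding of these proteins, were not measured.

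**Figure D4:**
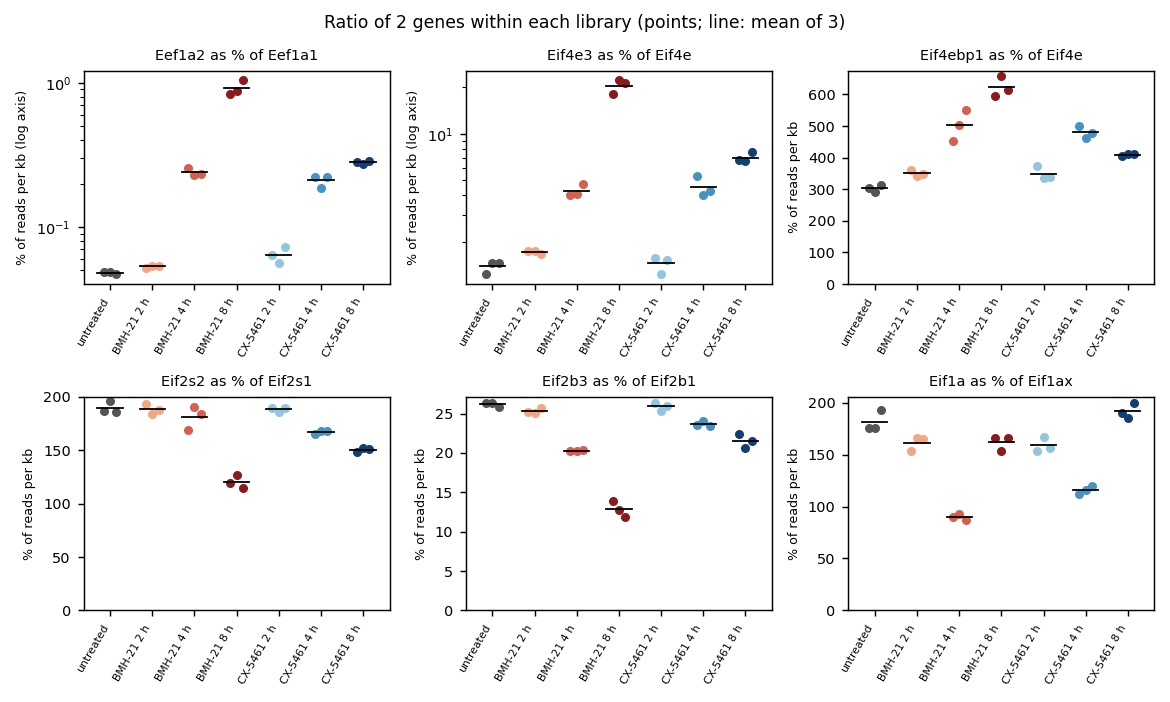
Ratio of 2 genes within each library, as a percentage of reads per kilobase (vertical axes; logarithmic for Eef1a2 and Eif4e3, starting at 0 for the others), by group (horizontal axis), with points for libraries and lines for means of 3. Eef1a2 climbs from 0.048% to 0.914% of Eef1a1 with 8 h in BMH-21 and Eif4ebp1 from 303% to 622% of Eif4e, while Eif2s2 drops from 190% to 120% of Eif2s1 and Eif2b3 from 26.2% to 12.9% of Eif2b1.

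Of 6 genes named for eEF1, 4 were lower and 1 higher after 8 h of each inhibitor. Their medians were -0.18 (BMH-21) and -0.29 (CX-5461), but 0.05 and 0.01 under quantile normalization. These 6 include Eef1e1, described below, which shares the name without being a subunit of eEF1. Eef1g, for the gamma subunit of eEF1B, changed by -0.40 and -0.33, or by -0.12 and 0.00 under quantile normalization. Eef1a1 had values of 13.36, 13.36 and 13.28 untreated, 13.18, 13.31 and 13.16 after 8 h in BMH-21 and 13.07, 13.12 and 13.03 after 8 h in CX-5461, which is 92.2% and 83.4% of untreated. Quantile normalization sets the most abundant gene of every library to the same level, so under it the difference was 0.00. Its libraries overlapped with the untreated ones under BMH-21 and not under CX-5461. Eef2 stood at 93.7% and 90.4%, but under quantile normalization its difference was 0.42 and 0.16, so its direction depends on the scaling. Eef1d was higher with BMH-21 than with CX-5461 at 4 h, at 9.19, 9.19 and 9.33 against 9.02, 8.98 and 8.98 (0.24, limma adjusted p 0.0012). At 8 h the inhibitors gave 84.1% and 80.2% of its untreated level, but 0.10 and 0.02 on the log2 scale under quantile normalization.

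Eef1a2 encodes a second form of eEF1A that replaces the common form in adult neurons, heart and skeletal muscle. Its values were 2.10, 2.10 and 1.97 in untreated libraries, 4.49, 4.32 and 4.39 after 4 h in BMH-21 and 6.01, 6.21 and 6.31 after 8 h. With CX-5461 they were 4.24, 3.97 and 4.23 at 4 h and 4.35, 4.35 and 4.33 at 8 h. These are 191 to 232 reads per untreated library, 3464 to 4947 after 8 h in BMH-21 and 1046 to 1245 after 8 h in CX-5461. All treated libraries at 4 and 8 h lay far above the untreated ones. The change was 17.4-fold after 8 h in BMH-21 (4.12, SE 0.09, limma adjusted p 5.1e-22) and 4.89-fold after 8 h in CX-5461 (2.29, SE 0.09, limma adjusted p 2.0e-16), the largest of any member with each inhibitor. Between 4 and 8 h it rose by a further 1.78 with BMH-21 (limma adjusted p 5.3e-14), while the difference of 0.20 with CX-5461 did not pass the test (SE 0.09, limma adjusted p 0.063) and was 0.56 as deposited. Even so it reached 0.914% ± 0.11 (SD, n = 3) of Eef1a1 per kilobase after 8 h in BMH-21, from 0.048% ± 0.00089, and 0.282% ± 0.0076 with CX-5461.

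Eef1e1 and Eef2kmt had fallen by 4 h, after smaller changes at 2 h. Eef1e1, for a scaffold protein of the multi-tRNA synthetase complex that shares its name with eEF1, had values of 6.77, 6.81 and 6.67 untreated, 5.98, 6.00 and 6.00 after 4 h in BMH-21 and 5.99, 6.02 and 5.92 after 4 h in CX-5461. This was 59.2% and 58.5% of untreated (limma adjusted p 1.4e-13 and 1.1e-13). At 2 h Eef1e1 was called lower with CX-5461 (-0.16) and was not called with BMH-21. At 8 h it stood at 53.6% with BMH-21 and 70.3% with CX-5461. Eef2kmt, for the lysine methyltransferase of eEF2, had values of 4.51, 4.56 and 4.56 untreated, 3.55, 3.49 and 3.60 after 8 h in BMH-21 and 3.99, 4.08 and 4.20 after 8 h in CX-5461. It stood at 85.8% and 87.4% after 2 h (limma adjusted p 0.0019 and 0.0063), 62.8% and 65.1% after 4 h, and 50.2% and 73.1% after 8 h. Eef2k, the kinase that inhibits eEF2, was at 65.7% and 72.9% at 4 h and 65% and 78.9% at 8 h. Eif6, which keeps the large ribosomal subunit from joining the small one too early, was at 60% (BMH-21) and 81.1% (CX-5461) at 8 h. With CX-5461 Eif6 was not called as deposited (-0.20) or under quantile normalization (-0.08). Eif5a, which helps ribosomes through stalling sequences, differed by -0.29 and -0.33 at 8 h.

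BMH-21 and CX-5461 were compared directly at each time, in the same fit. At 2 h 1 member was higher and 1 lower with BMH-21, against 5.78% and 9.20% of all genes (15.0% in all), and 0 members were called in all 3 scalings. At 4 h 18 were higher and 8 lower (18.0% and 23.9% of all genes, 41.9% in all), and Eef1d, Eif2ak1 and Eif3a were called in all 3 scalings. At 8 h 14 were higher and 30 lower with BMH-21 (35.8% and 35.1%, 70.9% in all), with a member median of -0.10. The deposited values gave 3 higher and 53 lower at 8 h, because their scaling lowers all genes of the BMH-21 libraries by 0.48 relative to those of CX-5461. In all 3 scalings 3 members were higher with BMH-21 at 8 h, namely Eef1a2 by 1.83 (3.56-fold, limma adjusted p 1.5e-14), Eif4e3 by 1.25 (2.38-fold, limma adjusted p 2.6e-09) and Eif2ak1 by 1.14 (2.21-fold, limma adjusted p 4.8e-18). The deposited scaling makes falls easier to pass here, and how many of all genes pass was not counted. The count lower in all 3 scalings was 30, led by Eif2b3 at -0.61 (limma adjusted p 4.1e-11), Eef2kmt at -0.54 (limma adjusted p 3.7e-09) and Eif2s2 at -0.51 (limma adjusted p 1.7e-10). These 3 genes rose with both inhibitors and further with BMH-21, and these 3 falls were deeper with it. In the shifted values Eif3e was alike in its means, at 66.3% and 66% of untreated, and its difference between inhibitors was 0.01 (SE 0.05). As deposited, Eif3e was called lower with BMH-21, as were all 12 eIF3 genes.

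Between 4 and 8 h in BMH-21, 5 members rose and 48 fell, against 38.0% and 31.2% of all genes (69.2% in all). Between 4 and 8 h in CX-5461, 6 rose and 40 fell (26.7% and 30.7%, 57.4% in all), but the deposited values gave 23 higher and 1 lower with a member median of 0.13, since all genes then had a median of 0.34. Called in all 3 scalings and without overlap were 3 rises and 41 falls with BMH-21, and 6 rises and 1 fall with CX-5461. As deposited the median of all genes was -0.14 with BMH-21 and 0.34 with CX-5461. Falls thus pass more easily with BMH-21 and rises with CX-5461, and how many of all genes pass was not counted. The rises with BMH-21 were Eif4e3 (1.79), Eef1a2 (1.78) and Eif2ak1 (0.52), and the largest fall was that of Eif2s2 (-1.14). With CX-5461 the fall was that of Eif4e1b (-1.21), and the rises were Eif4e3 (0.55), Eif1a (0.49), Eef1e1 (0.26), Eef2kmt (0.17), Eif2ak3 (0.13) and Eif5 (0.10). Of the genes that rose with CX-5461, Eif1a, Eef1e1, Eef2kmt and Eif5 had fallen by 4 h and stood nearer to the untreated level at 8 h. With BMH-21 the difference between 4 and 8 h was 0.25 for Eif1a, -0.15 for Eef1e1, -0.32 for Eef2kmt and 0.03 for Eif5. The genes of this paragraph were picked after their values were seen.

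Promoter sequences were looked at for what the members share apart from their names. RefSeq (GRCm38.p6) gave 64 windows of 250 bases before the start for 49 of the 62 genes. The E-box CACGTG, the site bound by MYC with MAX and by related factors, was in 13 of the 64 windows (20.3%), which belong to 11 genes, against 6.02% of 32851 windows of the same length over all genes. The cAMP response element TGACGTCA was in 0 member windows (1.55% of all), the AP-1 site TGANTCA in 4 (6.25% against 6.75%), the ETS site CCGGAAGT in 5 (7.81% against 2.88%) and the ATF4 composite TTGCATCA in 0 (0.791%). Both strands were searched, and in Eif3f the AP-1 and E-box letters overlap. Windows were not matched on base composition, and a match is a description of letters, not of binding. The E-box nearest to the start of each of the 11 genes is shown with 12 bases on either side, 5′ to 3′ in the direction of the gene, with the E-box in capitals.
Eif4e, chr3:138527192-138527221, plus strand: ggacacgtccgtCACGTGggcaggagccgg
Eif4g1, chr16:20672661-20672690, plus strand: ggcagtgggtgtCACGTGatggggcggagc
Eif4a1, chr11:69672595-69672624, minus strand: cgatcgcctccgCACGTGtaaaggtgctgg
Eif4h, chr5:134639488-134639517, minus strand: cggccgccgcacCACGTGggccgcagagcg
Eif3f, chr7:108934335-108934364, plus strand: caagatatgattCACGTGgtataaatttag
Eif3k, chr7:28981915-28981944, minus strand: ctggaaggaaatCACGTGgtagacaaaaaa
Eif1b, chr9:120492570-120492599, plus strand: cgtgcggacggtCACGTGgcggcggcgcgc
Eif5a, chr11:69921443-69921472, minus strand: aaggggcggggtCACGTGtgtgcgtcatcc
Eif5a2, chr3:28781148-28781177, plus strand: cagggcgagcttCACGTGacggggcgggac
Eef2, chr10:81176576-81176605, plus strand: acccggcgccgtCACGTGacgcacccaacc
Eef2k, chr7:120842788-120842817, plus strand: cccggggacggcCACGTGagcccgggcgtg

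These 11 genes include 4 of those grouped as eIF4 factors (Eif4e, Eif4g1, Eif4a1 and Eif4h), both eIF5A genes, and the elongation factor Eef2 with its kinase. The motif lay from 24 bases before the start in Eif1b to 189 in Eif4a1. With BMH-21 9 of the 11 were lower at 8 h and 0 higher, with a median of -0.29, while of the 38 genes with no E-box in the window 30 were lower and 5 higher, with a median of -0.48. With CX-5461 the counts were 11 lower and 0 higher with a median of -0.26, and 29 lower and 3 higher with a median of -0.36. Genes with and without an E-box in this window were thus both mostly lower at 8 h. Neither Eef1a2, the member that rose most, nor Eif2s2, which fell most with BMH-21, held any of the 5 motifs in its window. The stretch before the start of Eef1a2 is shown because that gene changed most (chr2:181157016-181157265, minus strand).
Eef1a2: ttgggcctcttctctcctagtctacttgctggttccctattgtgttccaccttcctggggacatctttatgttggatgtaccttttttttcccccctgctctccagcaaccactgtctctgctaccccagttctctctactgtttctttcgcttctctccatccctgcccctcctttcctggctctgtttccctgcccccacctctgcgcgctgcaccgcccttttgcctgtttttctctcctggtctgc

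The other genes of translation were followed as 6 lists, given here by counts. Of all genes tested, 40.7% were higher and 41.8% lower after 8 h in BMH-21, and 36.3% and 33.9% after 8 h in CX-5461. Of 9 genes for termination and ribosome recycling, 8 were lower and 1 higher after 8 h in BMH-21 and 7 lower after CX-5461, with medians of -0.49 and -0.29. Abce1, the ATPase that splits ribosomes, changed most with BMH-21, by -0.98, and by -0.67 with CX-5461. Of 5 genes for poly(A)-binding proteins and their partners, 4 were lower and 1 higher with BMH-21 (median -0.14), where Paip2b, for an inhibitor of poly(A)-binding protein, changed by -0.56. The gene that was higher, Pabpc1, at 0.16, was at -0.23 as deposited, where 5 were lower and 0 higher. CX-5461 gave 2 lower and 1 higher in this list (median -0.07, or 0.03 as deposited). Of 9 genes for the enzymes that make hypusine on eIF5A and diphthamide on eEF2, 7 were lower with BMH-21 and 8 with CX-5461 (medians -0.36 and -0.26). Dhps, which starts the synthesis of hypusine, changed by -1.26 and -0.77. Of 9 mitochondrial translation factors, 6 were lower and 2 higher with BMH-21 (median -0.28), with Tufm, the mitochondrial elongation factor Tu, at -0.44, and 5 were lower and 0 higher with CX-5461 (median -0.26). As deposited, CX-5461 gave 4 lower for termination and recycling, 4 for the hypusine and diphthamide enzymes and 2 for the mitochondrial factors.

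Both lists of regulators held genes called in each direction. Of 13 regulators of the eIF4 factors, 5 were higher and 4 lower after 8 h in BMH-21 and 4 and 4 after CX-5461. As deposited these counts were 4 and 8, and 3 and 1, so the balance depends on the scaling. Ddit4, which encodes an inhibitor of mTORC1, rose by 2.16 and 2.43 at 2 h in BMH-21 and CX-5461 and by 3.75 and 2.86 at 8 h, the 8 h values with limma adjusted p of 1.4e-19 and 1.3e-16. Of 7 genes for eIF2 phosphatases and the integrated stress response, 3 were higher and 3 lower with each inhibitor at 8 h, or 2 and 4 (BMH-21) and 2 and 1 (CX-5461) as deposited. Ddit3, for the stress factor CHOP, rose by 1.48 with BMH-21 (limma adjusted p 7.2e-13) and differed by 0.23 with CX-5461 (limma adjusted p 0.035), or by 0.12 after centring. Atf4, whose mRNA is translated when eIF2 alpha is phosphorylated, itself changed by -0.77 and -0.62 at 8 h. The gene named from each list is the one with the largest change at 8 h in BMH-21, except Atf4, which was picked after its values were seen.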

How the data were processed

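Poly(A) RNA of 21 libraries was measured by directional RNA-seq. The deposited table holds log2 values per gene. Per the submitters' processing notes the tools were Trim Galore 0.5.0, TopHat2 2.1.1, R 4.0.5, DESeq2 1.30.1, edgeR 3.32.1 and limma 3.46.0, and the build was mm10; their roles, the annotation and any use of strand in counting are not given in the sources used here. The deposited log2 values turned back into whole reads with an added 0.5 reads, to within 1.8e-08, which gave the read totals. Each library was then shifted by 1 constant so that the median over the tested genes of the distance from each gene's mean over the 21 libraries was 0. Genes with a deposited log2 value above 0 in at least 3 libraries were tested, 14666 in all. limma 3.58.1 (R 4.3.3) was fitted to 7 group means over all 21 libraries with a mean-variance trend, 14 residual degrees of freedom and two-sided tests, with Benjamini-Hochberg adjustment over all tested genes and a threshold of 0.05. The fit was tried on simulated data in which few genes were changed, evenly up and down and in a single group. In the real data most genes were called at 4 and 8 h, so this trial does not check the median shift. Figures were drawn with matplotlib 3.10.9. Exon lengths and positions come from GENCODE for GRCm38, the assembly also called mm10, and promoter windows from RefSeq for GRCm38.p6.

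Genes named against untreated cells were the 4 largest rises and falls per comparison, and between inhibitors the 3 largest, among members called in the same direction in the shifted, deposited and own-median values and with no overlap between libraries. From each list of other translation genes the 1 with the largest change after 8 h in BMH-21 was named. Other members were described by role after their values were seen. The members, lists and tests were chosen with earlier results of these data known. Alternatives were the deposited values, own-median centring, quantile normalization, no filter, a filter at log2 above 2, an offset of 5 reads, no trend, a robust fit, only the groups compared, a replicate block and leaving out each library. Replicate numbers did not pair the libraries: deviations of same-numbered libraries correlated between -0.25 and 0.11.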

Additional observations from a re-analysis of the deposited data

Results flagged for a closer look

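The values here are the log2 difference of BMH-21 minus CX-5461 at the same time. They cover genes named by rule at that time in a comparison with untreated cells, where the 2 inhibitor effects differed. The test was that of the difference (limma, adjusted over all tested genes). Genes named only at another time or only between inhibitors, such as Eef1d and Eif3a at 4 h, are left out even where they differed. Groups of 3 libraries are too small for a check of single outlying samples.

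At 8 h, higher with BMH-21 were Eef1a2 (1.83, limma adjusted p 1.5e-14), Eif4e3 (1.25, limma adjusted p 2.6e-09), Eif2ak1 (1.14, limma adjusted p 4.8e-18), Eif4e1b (0.50, limma adjusted p 0.0088) and Eif2ak3 (0.27, limma adjusted p 8.9e-06). The last 2 depended on the scaling: as deposited, Eif4e1b differed by 0.01 and Eif2ak3 by -0.22, the opposite direction.

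At 8 h, lower with BMH-21 were Eif2b3 (-0.61, limma adjusted p 4.1e-11), Eef2kmt (-0.54, limma adjusted p 3.7e-09), Eif2s2 (-0.51, limma adjusted p 1.7e-10), Eif4a2 (-0.44, limma adjusted p 7.2e-09) and Eif3d (-0.35, limma adjusted p 2.8e-09).

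At 4 h the differences listed were smaller. Eef1a2 was higher with BMH-21 by 0.25 (limma adjusted p 0.026) and Eif2ak1 by 0.23 (limma adjusted p 1.0e-05), while Eif5 differed by -0.21 (limma adjusted p 4.4e-05) and Eif1a by -0.20 (limma adjusted p 3.0e-05). Of these 4 genes, named in the report for changes against untreated cells, Eif2ak1 alone was called in all 3 scalings. As deposited, limma gave adjusted p of 0.053 for Eef1a2 (0.32), 0.37 for Eif5 (-0.14) and 0.4 for Eif1a (-0.13).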

How the results depend on the processing

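The genes named by rule gave 53 results, and all 847 alternative values of them kept direction and call. For the members this was partly fixed in advance, since they were named only if called in the deposited and own-median values. They were also the largest changes, so the remaining settings are a weak check. Eif4e1b had no value under the filter at log2 above 2. Counts of members called depended mainly on the scaling: 154 of their alternatives were within 1.5 times the reported count and 22 were not. With the deposited values the counts were 3 at 2 h in BMH-21 (reported 17), 5 at 2 h in CX-5461 (16), 35 at 8 h in CX-5461 (56), 24 between 4 and 8 h in CX-5461 (46), and 0 and 3 between inhibitors at 2 and 4 h (2 and 26). Centring on the own median gave 9 at 2 h in CX-5461 and 1 between inhibitors at 2 h. Quantile normalization gave 10 and 35 at 2 and 8 h in CX-5461 and 17 between inhibitors at 4 h. The count between inhibitors at 2 h was 1 with every gene tested, with no trend, and with only the groups compared.

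Leaving out 1 library gave 13 to 15, 33 to 40 and 49 to 57 called at 2, 4 and 8 h in BMH-21, 10 to 13, 36 to 39 and 55 to 56 in CX-5461, 0 to 2, 14 to 25 and 42 to 46 between inhibitors, and 51 to 53 (BMH-21) and 42 to 46 (CX-5461) between 4 and 8 h. The count at 2 h in CX-5461 was 10 without CX-5461 2 h replicate 1, and the count between inhibitors at 4 h was 14 without CX-5461 4 h replicate 3 and 17 without BMH-21 4 h replicate 1. The count between inhibitors at 2 h was 0 without BMH-21 2 h replicate 1 or 2, and 1 without BMH-21 2 h replicate 3 or CX-5461 2 h replicate 2 or 3.

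With the replicate number as a block, the counts were 17, 39 and 54 in BMH-21, 15, 39 and 56 in CX-5461, 2, 24 and 44 between inhibitors, and 53 and 44 between 4 and 8 h. Of the 21 libraries 4 correlated best with their own number. Depth limits Eif4e1b most, with 37 to 154 reads per library. The causes of these shifts were not tested.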
